A study of Mus musculus with 10 samples.

Results

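The genes described are 42 enzymes, transporters and regulatory kinases of glucose and energy metabolism: glucose and lactate carriers, the glycolytic enzymes, the enzymes and kinases that decide how pyruvate enters the mitochondrion, the pentose phosphate enzymes and the enzymes of the TCA cycle. They were chosen as rows whose Ensembl identifier maps to a list of symbols, with no use of their values, and all 42 were found among the 48795 rows of the count table. RNA-seq libraries came from neural stem cell (NSC) cultures of the subependymal zone of the brain of 10-week-old mice, either wild type (WT) or labelled p27KO, that is, mutant for Cdkn1b, which encodes the cell cycle inhibitor p27. Proliferating cells (PRO) were 3 DIV neurospheres kept with 20 ng/ml EGF and 10 ng/ml FGF, with 3 WT and 2 p27KO libraries. Differentiating cells (DIFF) had been plated on Matrigel with FGF for 2 DIV and were then left for 24 h without mitogens and with 2% serum (2+1 DIV), again with 3 WT and 2 p27KO libraries. The stages therefore differed in mitogens, serum, attachment and time, which cannot be told apart here. Nothing in the labels says which mice the replicates came from, so the p-values measure only the spread between these libraries.

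In glycolysis, glucose carried in by transporters such as GLUT1 is phosphorylated by hexokinase, committed by phosphofructokinase and split and oxidised to pyruvate, which lactate dehydrogenase can reduce to lactate. The pyruvate dehydrogenase complex, which PDK kinases inhibit, turns pyruvate into acetyl-CoA for the TCA cycle, whereas pyruvate carboxylase turns it into oxaloacetate, a reaction that in the brain is known from astrocytes. The pentose phosphate pathway draws off glucose 6-phosphate to make NADPH and the ribose of nucleotides. Dividing cells and neural stem cells in culture are known for a high rate of glycolysis, and several of its enzymes exist as forms encoded by separate genes that differ in kinetics, control and tissue.

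Promoter sequences were shown first for the genes of this set that hold an E-box, since factors of the MYC and MLX families, which read that motif, changed between the stages (see the regulators described later). RefSeq windows of the GRCm38.p6 build, from 250 bases before to 50 after an annotated start, were held for 40 of the 42 genes (63 windows). The motif CACGTG, which reads the same on both strands, occurred in a window of 8 of these 40 genes (20.0%), against 8.09% of 27025 genes with a window, or in 10 of 63 windows (15.9%) against 7.15% of 32851. The shorter ACGTG on either strand, which every CACGTG contains and which is the core of the site of hypoxia-inducible factors, occurred in 19 of 40 genes (47.5%) against 21.8% of all genes. By window it occurred in 28 of 63 (44.4%) against 19.6%. The background held every gene with a window, expressed or not, so these shares do not show that the motifs are particular to the set. The 8 genes with CACGTG were Pcx, Pdk2, Pfkfb2, Pfkfb3 and Pfkm, whose transcripts rose in WT cells, Ldha and Ogdh, whose transcripts fell, and Slc16a1, which did not pass the test, so genes of both directions held it. A match is a description of these letters, and binding was not measured. The stretches of 80 bases below, in capitals where they match, lie before an annotated start and outside annotated exons, and those of Pfkfb2 and Ldha lie within the gene, since longer transcripts start further upstream. They are given 5′ to 3′ along the gene's strand and follow in this order: Pdk2 at chr11:95041455-95041534 (minus strand), Pfkfb2 at chr1:130715822-130715901 (minus), Pfkm at chr15:98092416-98092495 (plus), Pcx at chr19:4510222-4510301 (plus), Ldha at chr7:46845622-46845701 and at chr7:46845719-46845798 (both plus) and Slc16a1 at chr3:104638427-104638506 (plus).
Pdk2: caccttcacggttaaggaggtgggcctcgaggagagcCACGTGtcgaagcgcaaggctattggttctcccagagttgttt
Pfkfb2: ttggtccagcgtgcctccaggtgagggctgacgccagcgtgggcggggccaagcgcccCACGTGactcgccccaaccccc
Pfkm: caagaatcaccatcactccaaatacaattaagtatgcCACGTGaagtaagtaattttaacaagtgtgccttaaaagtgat
Pcx: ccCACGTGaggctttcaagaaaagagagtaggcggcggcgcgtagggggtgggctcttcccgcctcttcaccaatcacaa
Ldha, upstream match: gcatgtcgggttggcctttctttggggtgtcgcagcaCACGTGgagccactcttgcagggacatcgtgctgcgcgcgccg
Ldha, downstream match: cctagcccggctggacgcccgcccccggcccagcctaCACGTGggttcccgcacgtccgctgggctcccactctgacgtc
Slc16a1: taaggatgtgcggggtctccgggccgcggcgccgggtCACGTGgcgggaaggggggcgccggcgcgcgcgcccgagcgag

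Library totals ranged from 19190068 to 25291674 counts. Cdkn1b transcripts were counted in the libraries labelled p27KO, at 90.7 to 114 CPM (the count as a part of the library total, scaled alike in every library) in PRO and 137 to 140.2 CPM in DIFF, against 103 to 112 and 205 to 209 CPM in WT, so the count of this gene does not check the label, and one of the label fields names all p27KO libraries as WT. The WT libraries had 188.6 to 533 CPM of Y-linked transcripts and at most 2.57 CPM of Xist, whereas the p27KO libraries had at most 0.585 CPM of Y-linked transcripts and at least 2258 CPM of Xist, so that genotype and sex cannot be told apart. Astrocyte markers were higher at DIFF: 7 of 10 tested passed the test upward and 0 downward in each genotype, and their summed level went from 951 to 1288 CPM over the PRO libraries to 3255 to 3829 CPM over the DIFF libraries. Gfap was at 0.613 ± 0.408 CPM (SD, n = 3) in WT PRO and at 110.6 ± 31.1 CPM in WT DIFF, while Nes, a marker of neural progenitors, was at 1732 ± 254 and 195 ± 40.9 CPM. Of 10 progenitor markers 5 rose and 3 fell in WT, and of 9 neuron markers 3 rose and 1 fell. Microglia markers summed to at most 0.663 CPM in any library, and Cdh5 and Cldn5 of endothelial cells were at 0 in all. The 9 endothelial and mural markers summed to 114.7 to 165 CPM over the PRO libraries and 34.8 to 59.3 CPM over the DIFF libraries, most of it from Cspg4, which oligodendrocyte progenitors also express. In each genotype Kdr rose and Flt1 and Cspg4 fell, of 3 tested. The part of these shifts in the results given next was not tested, and in bulk RNA fewer cells of a type and less RNA per cell cannot be told apart.

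Energy metabolism transcripts made up a smaller part of the RNA after mitogen withdrawal, but not in all steps of the pathway. The 42 genes held 0.918 ± 0.0483% (SD, n = 3) of all counts in WT PRO and 0.691 ± 0.0317% in WT DIFF, and 0.895 ± 0.00930% and 0.678 ± 0.0275% in the p27KO libraries (n = 2 each). TCA cycle genes went from 0.253 ± 0.00835% to 0.165 ± 0.0154% in WT and lower glycolysis from 0.394 ± 0.0235% to 0.255 ± 0.0108%. Genes of pyruvate entry went the other way, from 0.0432 ± 0.00331% to 0.0555 ± 0.00517%, and transporters from 0.0114 ± 0.000618% to 0.0136 ± 0.000182%.

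Of the 42 genes, 40 passed the filter on low counts. In WT cells 10 of these rose from PRO to DIFF and 21 fell at an adjusted p below 0.05 (edgeR's quasi-likelihood test, Benjamini-Hochberg over 12859 genes), and 9 did not pass. Among all genes tested, 33.5% rose and 33.9% fell, so that calls in both directions were common. The median log2 fold change was -0.34 over the 40 genes and -0.0019 over all genes. By role, 3 of 4 tested genes of pyruvate entry and 2 of 3 transporters rose and none of either group fell, whereas 9 of 10 TCA genes and 3 of 5 pentose phosphate genes fell and none rose. Glycolysis was mixed, with 3 rises and 4 falls among 10 genes of the upper part and 2 rises and 5 falls among 8 genes of the lower part. In the p27KO libraries 9 genes rose and 20 fell, against 27.5% and 30.2% of all genes, with a median of -0.36 (-0.029 over all genes).

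**Figure D1:**
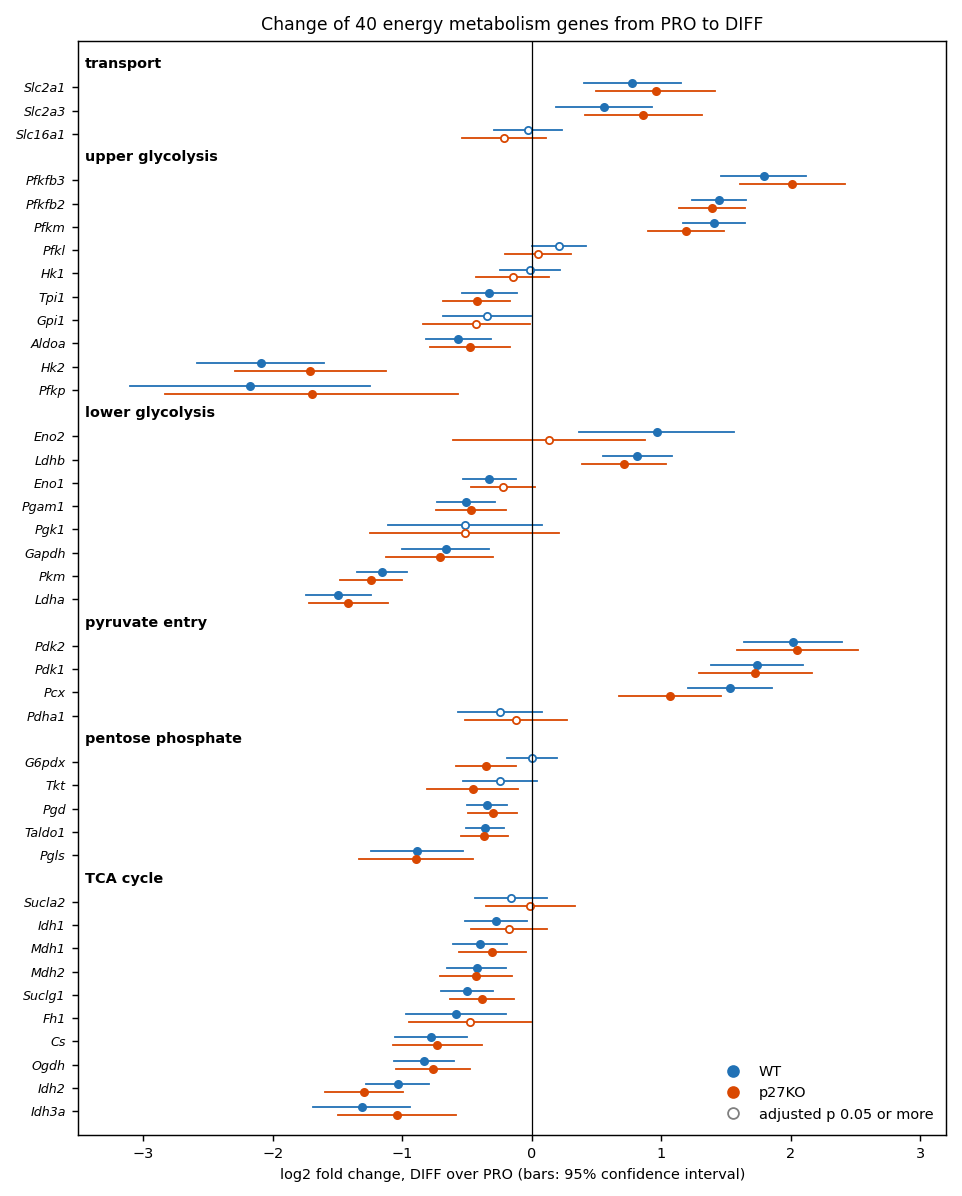
The log2 fold change from PRO to DIFF (x axis) is plotted for each of the 40 tested genes, grouped by role, in WT (blue) and in the libraries labelled p27KO (orange), with 95% confidence intervals as bars and open circles where the adjusted p was 0.05 or more. The 2 colours lie on the same side of 0 for all 40 genes, TCA and pentose phosphate genes lie at or left of 0, and upper glycolysis spans the width of the plot.

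The glucose transporters Slc2a1 and Slc2a3 were higher after withdrawal. Genes of the same family outside the 42 went both ways in WT. Slc2a9 and Slc2a6 fell (log2 -2.26 and -1.26, edgeR adjusted p = 7.9e-07 and 0.016), and Slc2a6 was low, with means of 3.18 CPM in PRO and 1.35 CPM in DIFF. The means of Slc2a8 and Slc2a12 were higher in DIFF, at 3.77 and 6.48 CPM in PRO and 7.67 and 20.6 CPM in DIFF. Slc2a1 (GLUT1, the widespread glucose carrier; chr4:119108711-119137983) was at 25.2, 24.5 and 22.7 CPM in WT PRO and at 40.5, 47.8 and 36.3 CPM in WT DIFF. In the p27KO libraries it was at 18.6 and 27.4, then 49.5 and 41.5 CPM. The groups did not overlap, and the log2 fold change was 0.78 (SE 0.17, adjusted p = 0.0022) in WT and 0.96 (SE 0.20, adjusted p = 0.0029) in p27KO. Slc2a3 (GLUT3, the high-affinity carrier of neurons) was at 13.2, 11.0 and 16.6 CPM in WT PRO and 19.6, 17.1 and 23.8 CPM in WT DIFF, and at 11.7 and 10.4, then 19.9 and 21.0 CPM in p27KO. Its change was 0.56 (adjusted p = 0.013) in WT, where it no longer passed without DIFF replicate 3 (0.43, adjusted p = 0.053), and 0.86 (adjusted p = 0.0049) in p27KO. Per kb of transcript, Slc2a1 made up 68.4 ± 5.496% of the pair in WT PRO and 71.2 ± 6.21% in WT DIFF, so the proportion moved by less than the spread.

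The lactate carriers gave no call in the filtered fit. Slc16a1 (MCT1, a carrier of lactate and pyruvate) was at 67.5, 80.5 and 77.5 CPM in WT PRO and 77.7, 69.2 and 75.7 CPM in WT DIFF. It was at 94.4 and 68.3, then 66.2 and 76.3 CPM in p27KO, so that the stages overlapped in both genotypes and the 95% intervals of the log2 change were -0.29 to 0.23 and -0.54 to 0.11. Slc16a3 (MCT4, the carrier that exports lactate from glycolytic cells) did not pass the filter. It had 10 to 19 counts per library in WT PRO (0.521, 0.598 and 0.876 CPM), 8 to 11 in WT DIFF (0.407, 0.456 and 0.316 CPM), 21 to 26 in p27KO PRO (1.07 and 1.03 CPM) and 9 in each library of p27KO DIFF (0.357 and 0.405 CPM). With no filter its log2 change was -0.84 (edgeR, adjusted p = 0.18) in WT and -1.55 (adjusted p = 0.037) in p27KO, on these few counts.

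Hk1 was the main hexokinase transcript at both stages, and Hk2 fell. Hk2, the hexokinase induced in growing and tumour cells (chr6:82725025-82774454), was at 24.2, 30.6 and 38.7 CPM in WT PRO and at 7.12, 5.39 and 9.57 CPM in WT DIFF. In p27KO it was at 32.4 and 28.5, then 8.92 and 10.0 CPM. The fall was 4.27-fold in WT (log2 -2.09, SE 0.22, adjusted p = 2.0e-05) and 3.27-fold in p27KO (log2 -1.71, SE 0.26, adjusted p = 0.00040). Hk1, the constitutive form of brain, was at 144, 171 and 144 CPM in WT PRO, 171, 150.1 and 137 CPM in WT DIFF, 139.7 and 151 CPM in p27KO PRO and 134 CPM in both libraries of p27KO DIFF. Its WT interval was -0.24 to 0.22. On the scale of CPM per kb, the share of Hk2 in the pair went from 12.5 ± 2.87% to 3.31 ± 1.18% in WT and from 12.8 ± 1.63% to 4.71 ± 0.386% in p27KO.

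Phosphofructokinase, the committed step, changed in composition. Pfkm, named for the muscle form (chr15:98092589-98132451), was at 107, 116 and 111 CPM in WT PRO and at 352, 275 and 266 CPM in WT DIFF, with 104 and 96.1, then 241 and 223 CPM in p27KO. Pfkp, the platelet form (chr13:6579768-6648777), went the other way, from 37.4, 51.5 and 34.0 CPM to 4.38, 14.0 and 8.78 CPM in WT and from 18.0 and 33.4 to 9.04 and 7.06 CPM in p27KO. Neither gene overlapped between the stages. In WT the log2 changes were 1.41 (SE 0.11, adjusted p = 2.5e-06) for Pfkm and -2.18 (SE 0.41, adjusted p = 0.0013) for Pfkp. In p27KO they were 1.19 (SE 0.13, adjusted p = 5.1e-05) and -1.70 (SE 0.50, adjusted p = 0.017), and the latter lay at an adjusted p of 0.052 to 0.11 without p27KO PRO replicate 2 or without either p27KO DIFF library, and at 0.071 with no filter. Exons of Pfkp overlap those of Pitrm1 on the other strand, which had a mean of 101 CPM over the 10 libraries, and the sources used here do not say whether counting was strand-specific.

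Pfkl, the liver form, was at 25.3, 24.8 and 22.5 CPM in WT PRO, 30.7, 27.1 and 26.7 CPM in WT DIFF, 23.3 and 25.3 CPM in p27KO PRO and 25.5 and 25.7 CPM in p27KO DIFF, and it did not pass the test (WT interval -0.0014 to 0.42). Summed per kb, the 3 forms went from 55.0 ± 3.73 to 113 ± 16.05 CPM per kb in WT and from 47.4 ± 1.13 to 89.4 ± 4.73 in p27KO. Pfkm held 70.4 ± 2.61% of that sum in WT PRO and 91.3 ± 1.52% in WT DIFF, and Pfkp 17.8 ± 2.80% and 2.02 ± 1.19%. In p27KO, Pfkm held 73.2 ± 5.72% and 90.1 ± 0.201%.

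**Figure D2:**
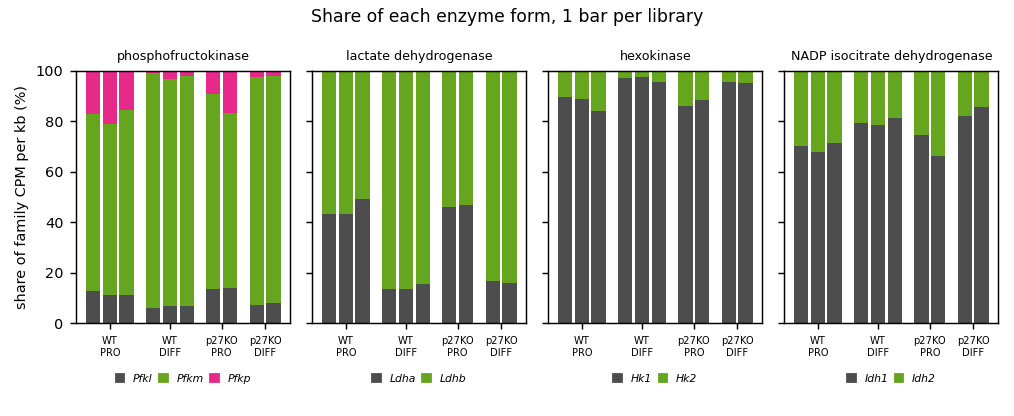
Each bar is 1 library, and the y axis gives the share in percent of the family's summed CPM per kb held by each gene, for phosphofructokinase, lactate dehydrogenase, hexokinase and the NADP-dependent isocitrate dehydrogenases. The share of Pfkp, Ldha, Hk2 and Idh2 is smaller in all 5 DIFF libraries than in any of the 5 PRO libraries, with Pfkp at 0.804 to 3.18% against 9.30 to 21.0%.

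The bifunctional enzymes that set fructose 2,6-bisphosphate, the activator of phosphofructokinase, rose with Pfkm. Pfkfb3, the form with the highest kinase activity, was at 34.2, 21.4 and 29.6 CPM in WT PRO and 103, 95.4 and 98.2 CPM in WT DIFF, and at 31.2 and 28.2, then 125 and 119 CPM in p27KO. Pfkfb2 was at 22.4, 20.9 and 23.8 CPM, then 61.7, 59.1 and 63.2 CPM in WT, and at 27.8 and 22.1, then 65.5 and 67.7 CPM in p27KO. All DIFF libraries lay above all PRO libraries for both genes. The rises were 3.46-fold and 2.72-fold in WT (adjusted p = 4.0e-06 and 8.9e-07) and 4.03-fold and 2.62-fold in p27KO (adjusted p = 1.6e-05 and 9.7e-06). Of the other enzymes of the upper part, Aldoa (aldolase A) fell by 0.57 in WT on the log2 scale (adjusted p = 0.0014) and Tpi1 (triosephosphate isomerase) by 0.33 (adjusted p = 0.011), the latter at 0.056 without WT PRO replicate 2. In p27KO Aldoa fell by 0.48 and Tpi1 by 0.43 (adjusted p = 0.014 and 0.0099). Gpi1 (glucose phosphate isomerase) had a log2 change of -0.35 in WT (adjusted p = 0.064). With the replicate number as a block, given a common effect in WT and p27KO, Gpi1 passed at -0.35 (edgeR adjusted p = 0.048). It also passed with DESeq2 (adjusted p = 0.042).

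**Figure D3:**
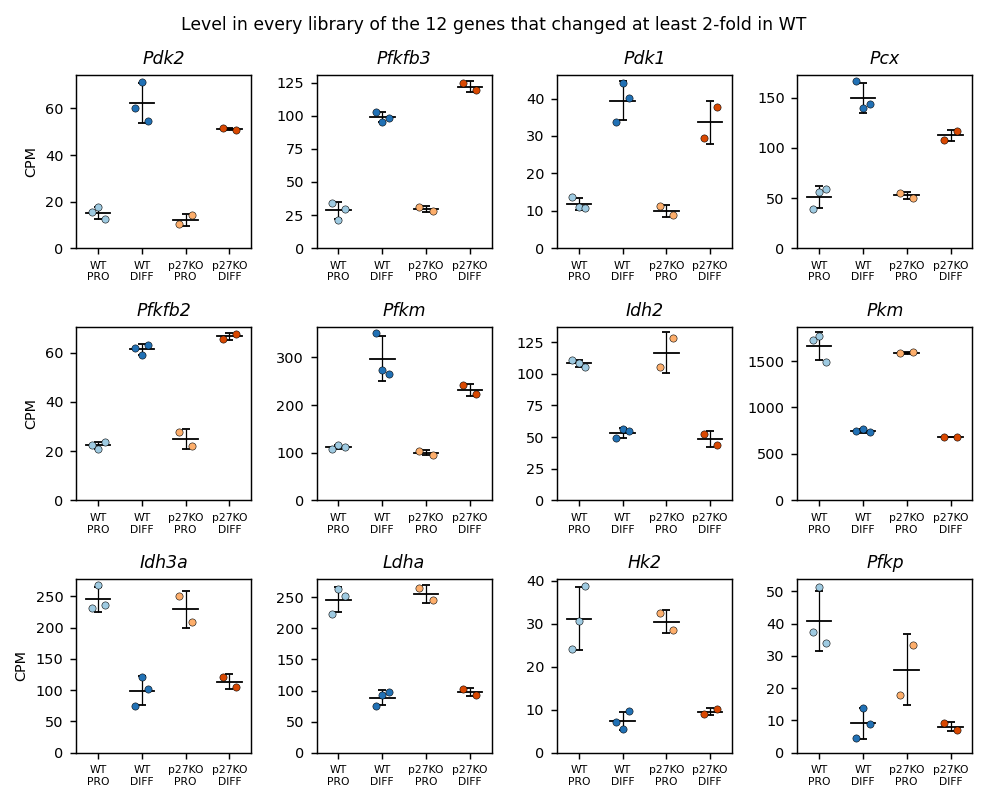
CPM (y axis, from 0) in each library of the 4 groups is plotted for the 12 genes with a WT log2 change of at least 1 in size past the threshold, with the mean as a line and the SD as bars. Within each genotype no PRO library overlaps a DIFF library in any of the 12 panels. The genes were chosen for their WT change, so the separation in WT follows largely from that choice. The p27KO groups hold only 2 libraries each, and the share of all genes without overlap is not given here. At DIFF the genotypes overlap in some panels, such as Ldha, and separate in others. Pcx, for example, lies at 139 to 167 CPM in WT and 108 to 117 CPM in p27KO. Pfkm and Pfkp also separate at PRO.

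In lower glycolysis the abundant enzymes fell. Pkm, pyruvate kinase, was the highest of the 42 genes per kb in PRO (684 CPM per kb in WT, 653 in p27KO). Its level was 1722, 1774 and 1493 CPM in WT PRO, 744, 773 and 731 CPM in WT DIFF, 1581 and 1597 CPM in p27KO PRO, and 682 and 685 CPM in p27KO DIFF. This was a fall of 2.23-fold (adjusted p = 2.2e-06) and 2.37-fold (adjusted p = 1.2e-05), and in WT DIFF the library ranges of Pkm, Ldhb and Eno1 in CPM per kb overlapped one another in that order. Gapdh fell by 0.67 and Pgam1 (phosphoglycerate mutase) by 0.51 on the log2 scale in WT (adjusted p = 0.0030 and 0.0012), and in p27KO by 0.71 and 0.47 (adjusted p = 0.0083 and 0.0081).

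Enolase remained almost wholly Eno1. Eno1, the ubiquitous form, was at 768, 712 and 738 CPM in WT PRO and 583, 567 and 630.4 CPM in WT DIFF, a log2 change of -0.33 (adjusted p = 0.0090), and at 729 and 722, then 694 and 568 CPM in p27KO, which did not pass (-0.23, adjusted p = 0.11). Eno2, the neuron-specific form, was at 3.49, 3.43 and 3.00 CPM in WT PRO and 9.52, 5.26 and 4.78 CPM in WT DIFF, with a single library far above the others. It rose by 0.96 in WT (adjusted p = 0.0097), or 0.61 (adjusted p = 0.023) without WT DIFF replicate 1. In p27KO it was at 3.55 and 3.15, then 3.13 and 4.36 CPM, so that the stages overlapped (0.13, interval -0.61 to 0.88). Its share of enolase per kb was at most 1.17% in any library.

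Lactate dehydrogenase shifted from the A to the B subunit. Ldha, whose tetramers favour the making of lactate (chr7:46841475-46855627), was at 223, 263 and 253 CPM in WT PRO and 74.5, 93.0 and 96.9 CPM in WT DIFF. In p27KO it was at 266 and 246, then 102 and 92.7 CPM. Ldhb, whose tetramers favour the use of lactate (chr6:142490249-142507957), was at 217, 254 and 194 CPM, then 349, 437 and 389 CPM in WT, and at 230.0 and 206, then 371 and 356 CPM in p27KO. The log2 changes were -1.49 (SE 0.11, adjusted p = 2.4e-06) and 0.81 (SE 0.12, adjusted p = 0.00019) in WT, and -1.42 (SE 0.14, adjusted p = 2.6e-05) and 0.71 (SE 0.15, adjusted p = 0.0022) in p27KO. Per kb, Ldhb held 54.8 ± 3.34% of the pair in WT PRO and 85.8 ± 1.11% in WT DIFF, and 53.6 ± 0.532% and 83.5 ± 0.564% in p27KO. The sum of the pair was 309 ± 29.7 CPM per kb in WT PRO and 350.3 ± 39.1 in WT DIFF, with library ranges that overlapped, whereas the shares did not overlap. The Ldha promoter was the one shown above with a pair of CACGTG matches.

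Pgk1, phosphoglycerate kinase, did not pass the test on its own row but did when its copies were added. Its row held 189, 248 and 292 CPM in WT PRO, 160.5, 148 and 207 CPM in WT DIFF, 305 and 142 CPM in p27KO PRO and 169 and 147 CPM in p27KO DIFF, with stages that overlapped. A pair of processed pseudogenes, Pgk1-rs7 and Gm5537, were identical to it over 1255 and 1252 bases, and together they held 57.5 to 73.1% of the summed counts, so the count of each of the 3 rows is uncertain. Summed, the level was 624, 726 and 715 CPM in WT PRO, 435, 517 and 518 CPM in WT DIFF, 717 and 526 CPM in p27KO PRO and 474 and 445 CPM in p27KO DIFF, and the stages no longer overlapped. The log2 change was -0.51 (SE 0.26, adjusted p = 0.11) alone and -0.50 (SE 0.12, adjusted p = 0.0050) summed in WT, and -0.52 (SE 0.32, adjusted p = 0.20) alone and -0.46 (SE 0.15, adjusted p = 0.025) summed in p27KO. Summing was chosen after the data were seen. Copies also held 13.7 to 20.2% of the summed counts for Gapdh (76 copies), 8.63 to 12.6% for Eno1 and 1.83 to 7.07% for Pgam1, whose changes when summed were -0.65, -0.34 and -0.53 in WT, with no call gained or lost.

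**Figure D4:**
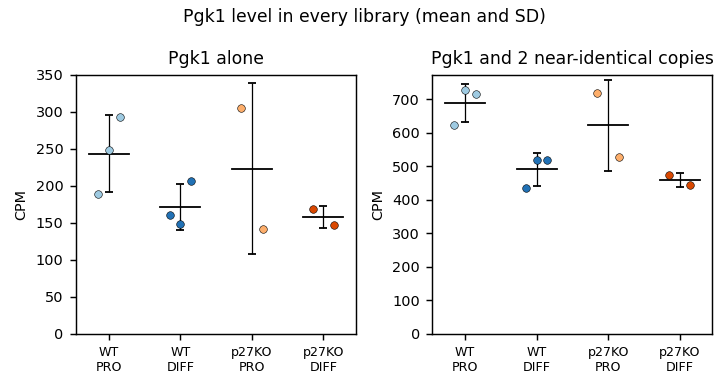
CPM in each library (y axis, from 0) is plotted for the Pgk1 row alone (left) and for Pgk1 with Pgk1-rs7 and Gm5537 added (right), with the mean as a line and the SD as bars. The PRO and DIFF libraries interleave on the left and separate within each genotype on the right, where WT PRO lies at 624 to 726 CPM and WT DIFF at 435 to 518 CPM.

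At the entry of pyruvate into the mitochondrion, Pdk1 and Pdk2, kinases that switch off pyruvate dehydrogenase, were higher after withdrawal, as was pyruvate carboxylase. Of the other kinases of this kind, Pdk4 did not pass the filter. Pdk3, which is not one of the 42 genes, was at 18.7, 21.3 and 21.3 CPM in WT PRO and 22.0, 21.3 and 22.4 CPM in WT DIFF. It did not pass (log2 0.089, interval -0.12 to 0.30, and -0.011 in p27KO). Pdk2 (chr11:95026258-95041354) was at 15.6, 17.6 and 12.6 CPM in WT PRO and 60.4, 71.5 and 54.6 CPM in WT DIFF, and at 10.3 and 14.1, then 51.7 and 50.9 CPM in p27KO. It rose 4.05-fold in WT (log2 2.02, SE 0.17, adjusted p = 4.7e-06) and 4.14-fold in p27KO (log2 2.05, SE 0.21, adjusted p = 3.3e-05). These were the largest estimated rises among the 40 tested genes, while the WT falls of Pfkp and Hk2 were larger in size (log2 -2.18 and -2.09). In p27KO Pdk2 was not separated from Pfkfb3 (log2 2.01, SE 0.18), and with 1 library left out it ranged from 1.82 to 2.31 and Pfkfb3 from 1.96 to 2.06. Pdk1, a target of hypoxia-inducible factor, was at 13.6, 11.1 and 10.6 CPM, then 33.8, 44.1 and 40.2 CPM in WT, and at 11.2 and 8.85, then 29.6 and 37.7 CPM in p27KO. It rose 3.33-fold in WT (adjusted p = 8.0e-06) and 3.30-fold in p27KO (adjusted p = 6.3e-05).

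Pdk4, the form induced by fasting and fatty acids, was low, and it did not pass the filter. It was at 0.730, 0.558 and 0.876 CPM in WT PRO, 2.09, 4.89 and 5.46 CPM in WT DIFF, 0.537 and 1.33 CPM in p27KO PRO and 8.80 and 3.42 CPM in p27KO DIFF. With every gene kept that had at least 1 CPM in at least 4 libraries, its log2 change was 2.48 (edgeR, adjusted p = 0.0021) in WT and 2.67 (adjusted p = 0.0051) in p27KO. That filter let it through on its DIFF libraries, so these calls rest on the group where it is high.

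Pcx, pyruvate carboxylase (chr19:4510472-4621752), was at 38.8, 56.2 and 59.2 CPM in WT PRO and 167, 139 and 144 CPM in WT DIFF, and at 55.2 and 50.1, then 108 and 117 CPM in p27KO. It rose 2.89-fold (log2 1.53, SE 0.14, adjusted p = 1.0e-05) and 2.10-fold (log2 1.07, SE 0.18, adjusted p = 0.00061), in libraries in which the astrocyte markers given above also rose. Pdha1, the catalytic alpha subunit of pyruvate dehydrogenase that the kinases phosphorylate, had log2 changes of -0.25 (interval -0.57 to 0.078) and -0.12 (interval -0.52 to 0.27) and did not pass.

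In the pentose phosphate pathway, G6pdx, the NADPH-making entry enzyme, was at 90.2, 84.6 and 82.4 CPM in WT PRO and 91.8, 84.9 and 82.1 CPM in WT DIFF, so that the stages coincided (interval -0.19 to 0.19). It was at 79.4 and 92.2, then 68.1 and 68.7 CPM in p27KO, a log2 change of -0.35 (adjusted p = 0.016). The next enzymes fell in both genotypes: Pgls (6-phosphogluconolactonase) by 0.89 and 0.90, Pgd (6-phosphogluconate dehydrogenase) by 0.35 and 0.30 and Taldo1 (transaldolase) by 0.36 and 0.37 on the log2 scale. Tkt (transketolase) passed in p27KO (-0.46, adjusted p = 0.030) and not in WT (-0.25, adjusted p = 0.11). The p27KO calls of G6pdx, Tkt and Pgd were lost (adjusted p 0.058 to 0.21) without PRO replicate 2 or without either DIFF library, where the changes of G6pdx and Tkt shrank to as little as -0.22 and -0.27. Those of G6pdx and Pgd were also lost with only the groups compared (adjusted p = 0.072 for each).

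All 10 TCA cycle genes had a negative log2 change in both genotypes. Cs, citrate synthase, was at 802, 808 and 691 CPM in WT PRO and 382, 519 and 446 CPM in WT DIFF, a change of -0.78 (adjusted p = 0.00035), with -0.73 (adjusted p = 0.0026) in p27KO. Idh3a, the catalytic subunit of the NAD-dependent isocitrate dehydrogenase (chr9:54586334-54604661), was at 232, 268 and 237 CPM, then 74.5, 121 and 102 CPM in WT, and at 249.99 and 209, then 122 and 105 CPM in p27KO. The stages did not overlap, and it fell 2.49-fold (adjusted p = 8.2e-05) and 2.06-fold (adjusted p = 0.0018). Ogdh (2-oxoglutarate dehydrogenase) fell by 0.83 and 0.76, Suclg1 (succinate-CoA ligase) by 0.50 and 0.38 and Mdh2 (mitochondrial malate dehydrogenase) by 0.43 and 0.43 on the log2 scale.

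Fh1 (fumarase) fell in WT (-0.59, adjusted p = 0.012) and did not pass in p27KO (-0.48, adjusted p = 0.076). Mdh1, the cytosolic malate dehydrogenase, fell by 0.40 in WT (adjusted p = 0.0038), and its p27KO value of -0.30 (adjusted p = 0.045) did not pass with the replicate block (adjusted p = 0.054), with DESeq2 size factors (0.055), with thinned counts (0.056) or with only the groups compared (0.13). Sucla2, the ATP-forming partner of Suclg1, did not pass in either genotype (intervals -0.44 to 0.12 and -0.36 to 0.33).

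The NADP-dependent isocitrate dehydrogenases differed. Idh2, the mitochondrial form (chr7:80094846-80115392), was at 111, 108 and 106 CPM in WT PRO and 49.0, 56.0 and 54.4 CPM in WT DIFF, and at 105 and 128, then 52.7 and 44.0 CPM in p27KO. It fell 2.05-fold (adjusted p = 2.2e-05) and 2.45-fold (adjusted p = 3.8e-05). Idh1, the cytosolic form, was at 344, 301 and 349.7 CPM, then 247, 267 and 313 CPM in WT, with stages that overlapped, and at 405 and 333, then 321 and 342 CPM in p27KO. Its WT change of -0.28 (adjusted p = 0.044) did not pass (adjusted p 0.062 to 0.17, log2 changes of -0.28 to -0.19) without any 1 of WT PRO replicates 1 and 3, WT DIFF replicates 1 and 2 and p27KO DIFF replicates 1 and 2, nor with DESeq2 size factors (0.0502), only the groups compared (0.054) or thinned counts (0.055), and its p27KO change of -0.18 did not pass. Per kb, Idh1 went from 69.8 ± 1.86% to 79.7 ± 1.52% of the pair in WT and from 70.4 ± 5.74% to 83.8 ± 2.32% in p27KO.

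The 2 genotypes moved alike in direction. All 40 genes had the same sign in both, 27 were called in both, 4 in WT alone (Eno1, Eno2, Idh1 and Fh1), 2 in p27KO alone (G6pdx and Tkt) and 7 in neither. Over all 12859 genes, 92.2% had the same sign, and 54.9% were called in both, 12.5% in WT alone, 2.83% in p27KO alone and 29.8% in neither. The difference between the 2 stage changes was tested by the interaction, which called 0 of the 40 genes (edgeR), against 0.389% of all genes upward and 0% downward, and 0 with DESeq2. Of the 40 genes, only G6pdx had an unadjusted p under 0.05, against 4.31% of all genes (difference -0.35, interval -0.66 to -0.050, edgeR adjusted p = 0.94). The median size of the difference was 0.10 with a median half-width of the 95% interval of 0.42, and 37 of the 40 intervals lay within 1 log2 unit of 0. The widest was that of Pfkp, with a half-width of 1.43. The calls of 11 of the 29 genes in p27KO were lost with a library left out, which leaves that group with 1 library whose spread is taken from the other groups: without PRO replicate 2 for Pfkp, Aldoa, Tpi1, Gapdh, G6pdx, Pgd, Tkt and Mdh2, without PRO replicate 1 for Pgam1, Suclg1 and Mdh1, without DIFF replicate 1 for Pfkp, G6pdx, Pgd, Tkt, Suclg1, Mdh1 and Mdh2, and without DIFF replicate 2 for all of these but Pgam1. Their adjusted p was then 0.052 to 0.31 and their log2 change -1.90 to -0.14. Mdh1 was also lost without any 1 of the 6 WT libraries.

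Direct comparison of the genotypes called 0 of the 40 genes at either stage, with edgeR and with DESeq2. Of all genes, 1.91% were higher and 0.124% lower in p27KO at DIFF, and 0.0156% and 0% at PRO. At DIFF 6 of the 40 genes had an unadjusted p under 0.05, against 14.8% of all genes, a share near the background. They were Pfkm (-0.34), Eno2 (-0.78), Pcx (-0.40), G6pdx (-0.32), Idh1 (0.28) and Fh1 (0.49), with edgeR adjusted p-values of 0.16 to 0.32, and at PRO there were 0, against 4.69% of all genes. At DIFF 38 of 40 intervals and at PRO 39 of 40 lay within 1 log2 unit of 0. The genes on the X chromosome, where sex goes with genotype, had p27KO over WT differences at DIFF of -0.11 (Pgk1, interval -0.77 to 0.56), 0.17 (Pdha1, -0.19 to 0.53) and -0.32 (G6pdx, -0.54 to -0.11). At PRO they were -0.10, 0.048 and 0.032.

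Other genes of the same pathways, 76 in all of which 54 were tested, gave 16 rises and 17 falls in WT and 12 and 16 in p27KO, with medians of 0.017 and -0.0032. Around pyruvate dehydrogenase, Pdp1, the phosphatase that reverses the PDK kinases, rose as Pdk1 and Pdk2 did. Its level went from 5.32, 6.02 and 5.26 CPM to 21.6, 32.3 and 28.3 CPM in WT (log2 2.30, adjusted p = 1.7e-06), and its log2 change was 2.63 in p27KO. Glud1 (glutamate dehydrogenase, which feeds the cycle from glutamate) rose from 237, 267 and 263 to 1282, 1394 and 1513 CPM in WT, 5.42-fold, and 5.09-fold in p27KO. Acly, which splits exported citrate for lipid synthesis, fell from 734, 627 and 627 to 223, 191 and 207 CPM, 3.23-fold, and 2.99-fold in p27KO.

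Further genes past the threshold with a log2 change of at least 1 in size and a mean of at least 10 CPM were, with their WT values, Slc2a12 (a glucose carrier, 1.66), Aldoc (the brain aldolase, which is also on the astrocyte marker list, 1.42) and Me3 (mitochondrial malic enzyme, 1.18) upward. Downward they were Gpd1 (cytosolic glycerol 3-phosphate dehydrogenase, -2.33), Rpia (ribose 5-phosphate isomerase, -2.17), Prps2 (phosphoribosyl pyrophosphate synthetase, -1.45) and Tigar (fructose bisphosphatase, -1.38). The p27KO values were 1.36, 0.91, 0.98, -2.96, -1.94, -1.22 and -1.18, all past the threshold. Of the 54 tested, Slc2a9 alone differed between genotypes (0.76 higher in p27KO at DIFF, edgeR adjusted p = 0.043), and it was named after its value was seen.

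**Figure D5:**
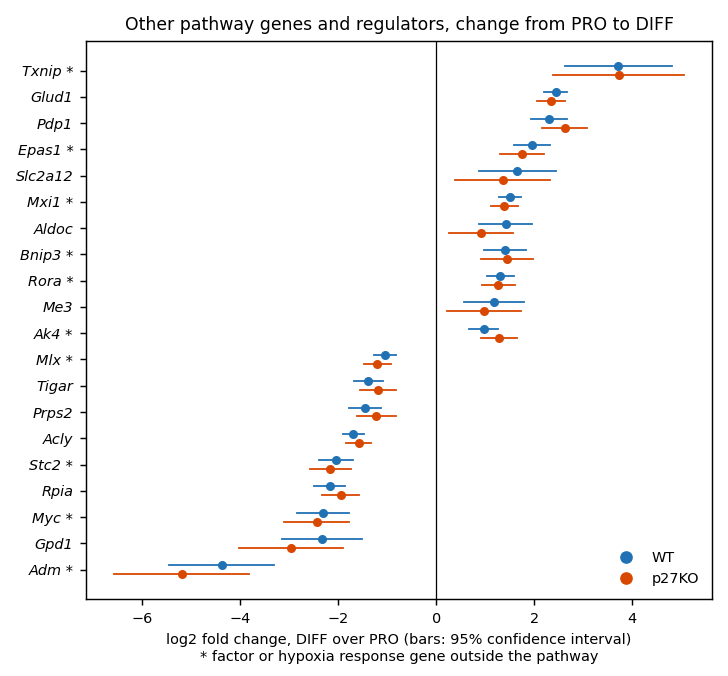
The log2 fold change from PRO to DIFF (x axis) with its 95% interval is plotted for 20 genes outside the set in WT (blue) and p27KO (orange): 10 of the pathways and, with an asterisk, 10 factors or hypoxia response genes. Each was past the threshold with a change of at least 1 in size in a genotype and a mean of at least 10 CPM, and Txnip at the top (3.72 in both) and Adm at the bottom (-4.37 and -5.19) span the range.

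Among regulators known to act on these genes, Myc fell from 188, 159.7 and 156 CPM in WT PRO to 44.6, 22.0 and 35.7 CPM in WT DIFF (log2 -2.31, adjusted p = 2.4e-05) and by 2.44 in p27KO, whereas Mycn rose from a lower level (2.10 and 2.70). Of the glucose-sensing MLX group, Mlx fell by 1.04 and 1.20, Mlxip rose by 0.59 and 0.39, and Mlxipl did not pass the filter. Txnip, a target of that group that lowers glucose uptake, rose from 1.41, 2.27 and 4.93 CPM to 21.7, 42.1 and 50.8 CPM in WT, 13.2-fold in either genotype. Of the hypoxia-inducible factors, Hif1a fell by 0.41 in both genotypes, Epas1 (HIF-2 alpha) rose by 1.96 and 1.75, their partner Arnt did not pass (0.095 and 0.18) and Hif3a did not pass the filter. Hypoxia response genes went both ways, with 9 rises and 6 falls among 18 tested in WT and 10 and 6 in p27KO. Mxi1 (1.51, a MYC antagonist), Bnip3 (1.41, a mitophagy receptor) and Rora (1.31, a nuclear receptor) rose in WT, Ak4 (a mitochondrial adenylate kinase) rose by 0.97 in WT and 1.28 in p27KO, and Adm (adrenomedullin, -4.37) and Stc2 (stanniocalcin, -2.04) fell. Whether any of these factors bears on the genes of the set was not tested.

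Several genes of the set share sequence with a neighbour on the annotation. Aldoa, G6pdx, Gapdh, Gpi1, Hk1, Mdh1, Pdha1, Pfkfb2, Pfkm, Pfkp, Slc2a1 and Tpi1 overlap a gene on the opposite strand, and Pfkfb2, Pfkm, Pgls and Tkt overlap one on the same strand, so reads in the overlaps cannot be assigned from these counts.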

How the data were processed

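RNA had been turned into cDNA with the Ovation RNA-seq System V2. The authors aligned reads to the mouse transcriptome with STAR, and RSEM gave an estimated count per gene. These expected counts were deposited by the authors as whole numbers with no normalization. The submitters' processing notes also name GRCm38 (mm10), FastQC, Trimmomatic and cutadapt. Versions and the strand setting were not given in the sources used here. Identifiers were matched to GENCODE vM21 (GRCm38), whose coordinates are printed (48435 of 48795 rows had a symbol).

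A gene was dropped where 4 or more of the 10 libraries lay under 1 CPM, which kept 12859. Counts were scaled by TMM and all libraries were fitted as 4 groups with edgeR 4.0.16 (robust quasi-likelihood test, R 4.3.3). Tests were two-sided, with Benjamini-Hochberg adjustment over all 12859 genes and a threshold of 0.05. The study's own tool, DESeq2 (1.42.0 here), was an alternative. Others were its size factors, other filters, only the groups compared, a minimum log2 change of 1, thinned counts, a replicate block, and each library left out. The block gave libraries of the same replicate number a common effect in WT and p27KO. No source links the number of a WT library to that of a p27KO library, so the block was not a pairing within each genotype. Library totals of 19190068 to 25291674 left the spread between 2 or 3 replicates as the main limit on precision. Levels were compared between genes only per kb of the main transcript. Copies at other loci were found with blastn 2.17.0 (at least 95% identity over 200 bases). The steps were tested on simulated data.

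All 42 genes are named. Values in every library are given for those past the threshold in WT with a log2 change of at least 1 in size and for enzyme families. Other pathway and hypoxia genes are named where they passed the threshold with that size and a mean of at least 10 CPM, at most 5 in each direction. Pdk3, Slc2a6, Slc2a8, Slc2a9 and values by library of further genes were added after they were seen. The genes, lists and motifs were chosen with earlier results of these data known. Same-numbered WT libraries of the 2 stages deviated together (correlations of deviations 0.25, 0.30 and 0.40), though no source says what the numbers mark. The main fit had no term for the replicate number, which entered only the block fits, so the main p-values take no account of pairs. Same-numbered p27KO libraries correlated at -0.14. Replicates differed by more than the sampling noise (chi-square per gene 14.8 to 64.5), which shows only that they were not copies of the same reads. Each was counted as a separate sample, though the labels do not say whether they came from different mice. Promoters were RefSeq windows of GRCm38.p6.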

Additional observations from a re-analysis of the deposited data

How the results depend on the processing

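The direction of every called change in WT was kept under all 17 planned settings, and 28 of the 31 WT calls and 18 of the 29 p27KO calls also kept their side of the threshold, apart from the minimum change. With a minimum log2 change of 1, 6 genes rose and 6 fell in WT, and 6 rose and 6 fell in p27KO. The share of all genes past that minimum is not given here, so these counts have no background beside them. Without a filter the WT median was -0.42. With 1 library left out, WT rises numbered 9 to 10, WT falls 20 to 22 and the WT median was -0.37 to -0.29. In p27KO the rises numbered 9, the falls 10 (without DIFF replicate 2) to 20, and the median was -0.39 to -0.26. With the replicate block, 10 genes rose and 22 fell in WT and 9 and 19 in p27KO, with 0 in the interaction and between genotypes. It changed no call but those of Gpi1 and Mdh1. With 2 p27KO libraries per stage, the correlations of same-numbered and crossed libraries are 1 value with opposite signs (-0.14 and 0.14). They therefore cannot show whether the p27KO numbers are crossed. A block with these numbers crossed, added after the data were seen, called 33 genes in WT and 29 in p27KO.

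Values that changed sign were all uncalled. Among WT changes, G6pdx was 0.0021 with DESeq2 and with its size factors and Hk1 was 0.0024 with thinned counts. Among p27KO changes, Sucla2 was 0.0075 with DESeq2 and with its size factors and 0.023 with only the groups compared, and Pfkl was -0.020 without a filter. Between genotypes, with the block and with the crossed block, G6pdx at PRO was -0.0047 and -0.0048 and Pgk1 at DIFF was 0.033 and 0.047, and Pgk1 at PRO was 0.019 with the crossed block. With 1 library left out, the WT changes ranged from -0.10 to 0.030 (Slc16a1), -0.083 to 0.082 (Hk1) and -0.028 to 0.043 (G6pdx). The p27KO changes ranged from -0.41 to 0.015 (Slc16a1), -0.031 to 0.13 (Pfkl), -0.95 to 0.11 (Pgk1), -0.11 to 0.35 (Eno2), -0.24 to 0.0088 (Pdha1) and -0.18 to 0.17 (Sucla2). Genotype differences ranged from -0.22 to 0.037 (Pgk1 at DIFF), -0.73 to 0.33 (Pgk1 at PRO), -0.084 to 0.17 (Pdha1 at PRO) and -0.10 to 0.15 (G6pdx at PRO).

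Over all genes, DESeq2 called 156 in the interaction against 50 with edgeR, 639 against 262 between genotypes at DIFF and 40 against 2 at PRO, with 0 of the 40 genes in each. The crossed block called 524 at DIFF and either block 1 at PRO. With 2 p27KO libraries per stage, the 95% interval of a genotype difference had a median half-width of 0.29 on the log2 scale at either stage. Smaller differences were not detectable for most of the 40 genes. The interval is not adjusted for the number of genes, and larger differences also went uncalled at DIFF, such as Eno2 (-0.78) and Fh1 (0.49). Where a call changed, the cause was not tested.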
